A study of Mus musculus with 36 samples.

Results

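Aminoacyl-tRNA synthetases were followed in mouse embryonic fibroblasts (MEFs) as 2 sets of genes, the cytosolic enzymes and their mitochondrial counterparts. The genes were taken by symbol from the deposited expression table: 20 cytosolic members, and 16 mitochondrial members whose symbols end in 2. All 36 were found among the 54735 symbols of the table, and all 36 passed the filter on low values that left 16083 genes for testing. Expression was measured by RNA sequencing of total RNA and given by the authors as TPM, a transcript abundance normalized for length that sums to the same total in every library.

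Cells were labelled "GCN2 delete", "PERK delete" or WT. Each of these 3 genotypes was kept without lysine and arginine for 6 h (amino acid starvation, AAS, in a SILAC medium), exposed to 200 nM thapsigargin for 6 h, given DMSO, or not treated. Thapsigargin is an inhibitor of the pump that loads calcium into the endoplasmic reticulum. Each of the 12 groups held 3 libraries, 36 in all, which the labels call technical replicates, so p-values measure only the spread between libraries that may come from the same cells. The labels name 1 cell type and no separate line or clone per genotype, so a deletion and other differences between lines cannot be told apart. AAS was compared with no treatment and thapsigargin with DMSO; the labels assign no control to either stress, and AAS cannot be told apart from the change of medium.

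Aminoacyl-tRNA synthetases join each amino acid to its transfer RNA, and separate nuclear genes supply most of the enzymes of the cytosol and of the mitochondrion. Gars (glycine) and Kars (lysine) serve both compartments, so neither has a counterpart in the mitochondrial set, and mitochondria make glutaminyl-tRNA indirectly from the product of Ears2. The kinases GCN2, which senses uncharged tRNA, and PERK, which senses unfolded protein in the endoplasmic reticulum, both phosphorylate the translation factor eIF2alpha; this raises translation of the transcription factor ATF4, whose known targets include cytosolic synthetase genes.

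The labels were first checked on the deleted genes. Eif2ak4, which encodes GCN2, had group means of 5.25 to 6.70 TPM in the GCN2-deleted line, against 19.6 to 24.6 TPM in the other lines. Eif2ak3, which encodes PERK, was lower in untreated PERK-deleted cells than in untreated WT cells (log2 difference -0.61, limma adjusted p = 6.64e-06), but group means ran from 3.77 to 8.61 TPM in the PERK-deleted line, against 3.98 to 11.71 TPM in WT, so the ranges over treatments overlapped and WT under AAS lay below untreated PERK-deleted cells (4.22 TPM). Fibroblast markers were present (7 of 8 averaged over 5 TPM, all but Thy1), and no listed marker of epithelium, endothelium, blood or skeletal muscle averaged that much. Libraries of a group correlated at 0.9621 to 0.9876 across the genes tested, and the largest replicate spread was in untreated WT cells (median SD 0.195 on the log2 scale) and the smallest in WT cells under AAS (0.075). In bulk RNA, fewer cells of a type and less RNA per cell cannot be told apart.

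The levels of both sets hardly overlapped in untreated WT cells. TPM is normalized for length, so levels can be set beside each other between genes. Cytosolic members ranged from 376.7 ± 57.2 TPM for Vars (valine) to 55.1 ± 3.61 TPM for Wars (tryptophan) (mean ± SD, n = 3 libraries here and below). Apart from Lars2, mitochondrial members ranged from 67.34 ± 9.43 TPM for Tars2 (threonine) to 3.494 ± 0.674 TPM for Mars2 (methionine). By mean, Tars2 lay above Wars alone among the cytosolic members, and Lars2 (348.7 TPM) above all of them but Vars. The other mitochondrial members lay below every cytosolic one.

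Lars2, the mitochondrial leucine enzyme, stood apart from its set. It ran from 178.2 to 898.7 TPM over the 36 libraries. Its 4 highest libraries, replicate 1 of DMSO and replicate 2 of thapsigargin in the GCN2-deleted line and replicate 3 of no treatment and of DMSO in the PERK-deleted line, held 513 to 898.7 TPM, against 178.2 to 440.2 TPM in the other 32. The same 4 libraries were the highest for Gm42418, with 3370 to 5792 TPM against 1245 to 2842 TPM in the other 32, and 3 of the 4 were among the 4 highest for Mir6236. The part of these transcripts in the Lars2 values was not tested. Lars2 had an SE of 0.456 in the comparisons of 2 groups, was called in none of the 13 comparisons, and is left out of the sums below.

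**Figure D1:**
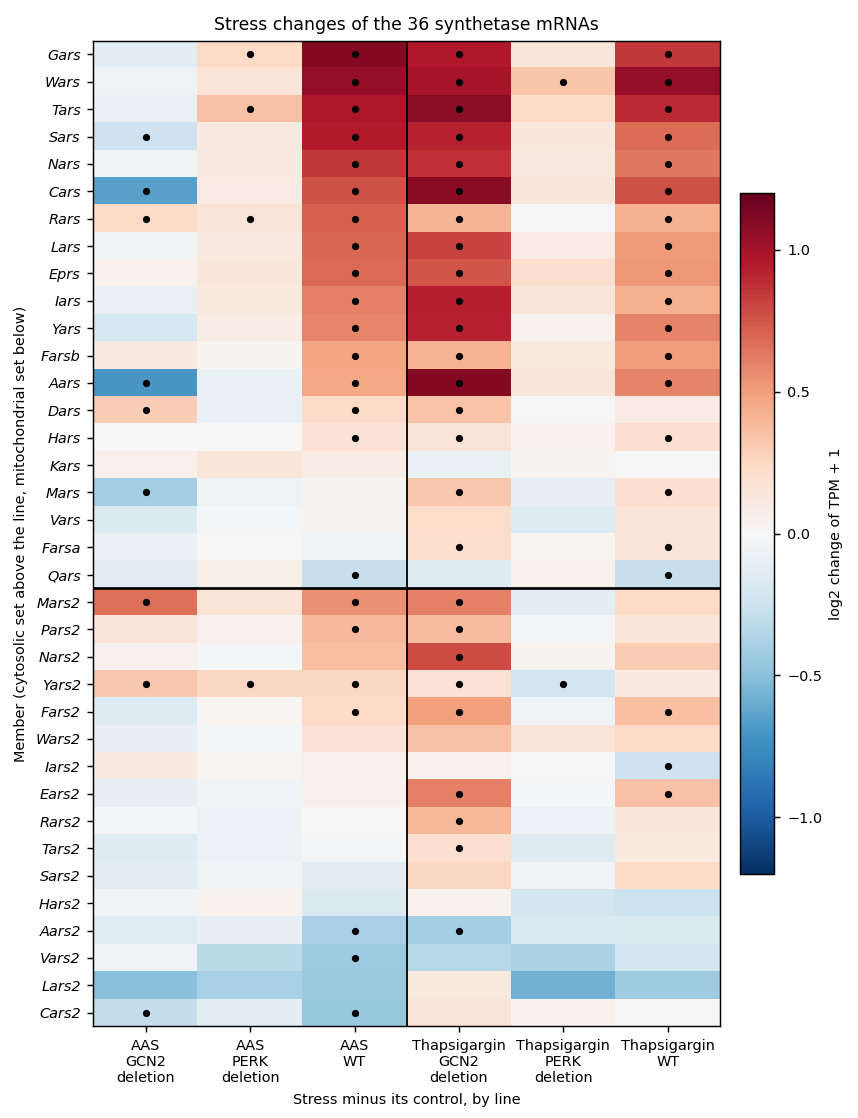
Log2 change of the 36 members (rows, ordered within each set by the AAS change in WT) under AAS and under thapsigargin in the GCN2-deleted, PERK-deleted and WT lines (columns); black dots mark limma adjusted p under 0.05. In WT, dots fill most of the cytosolic block under both stresses (15 rose and 1 fell of 20 under AAS, 16 rose and 1 fell of 20 under thapsigargin), and fewer of the mitochondrial block.

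In WT cells, amino acid starvation raised most cytosolic synthetase transcripts, by up to 2.14-fold, and fewer mitochondrial ones. Of the 20 cytosolic members 15 rose and 1 fell, while 12.5% of all genes tested rose and 17.4% fell (limma, Benjamini-Hochberg adjusted p under 0.05 over all genes, as in every count here). Of the 16 mitochondrial members 4 rose and 3 fell, a share of falls near that of all genes. The falls depended on the control: against DMSO 5 mitochondrial members rose and 0 fell. Without replicate 1 of the untreated WT libraries 2 rose and 1 fell. The median log2 change was 0.60 for the cytosolic set and 0.02 for the mitochondrial set, against -0.05 for all genes. The cytosolic changes ran from -0.28 to 1.10 and the mitochondrial ones from -0.46 to 0.54.

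The enzymes of the 2 missing amino acids did not move alike. Kars (lysine; GRCm38 chromosome 8, 111993443 to 112011323, minus strand) had 279.5, 275.6 and 274 TPM under AAS, against 233.4, 279.1 and 270.8 TPM without treatment in WT. These libraries overlapped, and the change did not pass (log2 change 0.09, SE 0.055, adjusted p = 0.276). Rars (arginine, cytosolic; chromosome 11, 35808381 to 35834506, minus strand) had 269, 267.6 and 278 TPM under AAS, against 170.5, 168.9 and 155.6 TPM without treatment. All starved libraries lay above all untreated ones (0.72, SE 0.0462, adjusted p = 1.29e-12). Its mitochondrial counterpart Rars2 (chromosome 4, 34614957 to 34660167, plus strand) had 29.32, 26.74 and 27.4 TPM under AAS, against 27.52, 30.35 and 25.73 TPM without treatment, with an adjusted p of 1. With DMSO in place of untreated cells as control, Rars2 was higher under AAS (0.28, adjusted p = 0.00844), so its result depended on the control.

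The largest rises were in enzymes of amino acids other than lysine and arginine. Gars (glycine; chromosome 6, 55038007 to 55079500, plus strand) had 449.9, 456.8 and 472.3 TPM under AAS, against 198.1, 231.3 and 214.1 TPM without treatment (log2 change 1.10, SE 0.0599, adjusted p = 3.68e-14). Wars (tryptophan; chromosome 12, 108860030 to 108894174, minus strand) had 107.7, 116 and 122.7 TPM under AAS, against 50.97, 57.66 and 56.67 TPM without treatment (1.05, SE 0.0794, adjusted p = 3.17e-11). Tars (threonine; chromosome 15, 11382301 to 11399665, minus strand) had 507.9, 507.4 and 505.5 TPM under AAS, against 255.8, 272.3 and 245.7 TPM without treatment (0.97, SE 0.0771, adjusted p = 9.18e-11). None of these starved libraries overlapped an untreated one, and all 3 genes were near a doubling (folds 2.14, 2.1 and 1.97).

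Sars (serine) had 482.8, 492.4 and 531.6 TPM under AAS, against 219.9, 285.9 and 276.3 TPM without treatment (0.95, SE 0.0773, adjusted p = 1.48e-10). Nars (asparagine) had 396, 397.2 and 411.7 TPM under AAS, against 224.8, 231.5 and 210.5 TPM without treatment (0.85, SE 0.055, adjusted p = 1.32e-12). Both pairs of groups were again separate. Cars (cysteine), Lars (leucine), Eprs, the fused enzyme of glutamate and proline, Iars (isoleucine), Yars (tyrosine), Farsb, a subunit of the phenylalanine enzyme, and Aars (alanine) rose by 0.47 to 0.77, and Dars (aspartate) and Hars (histidine) by 0.23 and 0.18. Farsa, the other subunit of the phenylalanine enzyme, did not pass (-0.04), nor did Mars (methionine, 0.03) and Vars (0.03).

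Qars (glutamine; chromosome 9, 108507706 to 108515941, plus strand) was the cytosolic member that fell. It had 95.18, 99.98 and 83.44 TPM under AAS, against 127.4, 107.6 and 104 TPM without treatment (log2 change -0.28, SE 0.0913, adjusted p = 0.0208). The groups did not overlap, but without replicate 1 of the untreated WT libraries the change was -0.19 with an adjusted p of 0.166. The call was also lost after rescaling and with DMSO as control, where 0 cytosolic members fell.

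Among mitochondrial members, Mars2 (chromosome 1, 55237177 to 55248470, plus strand) moved most. It had 5.454, 5.489 and 5.554 TPM under AAS, against 4.08, 3.643 and 2.758 TPM without treatment (0.54, SE 0.117, adjusted p = 0.00067). Cars2 (cysteine; chromosome 8, 11513977 to 11550783, minus strand) moved the other way, with 21.79, 21.3 and 21.07 TPM under AAS against 36.4, 26.89 and 26.75 TPM without treatment (-0.46, SE 0.0903, adjusted p = 0.000258). In each of these the groups were separate. With DMSO as control the change of Cars2 was -0.22 and did not pass (adjusted p = 0.0795), and with only the compared groups in the fit neither Mars2 (adjusted p = 0.0636) nor Cars2 (adjusted p = 0.0871) passed. Cars2 overlaps Naxd on the opposite strand, and 10 members in all overlap a coding gene on the other strand (also Farsb, Hars, Hars2, Mars, Wars, Yars, Ears2, Fars2 and Iars2). Whether the quantification used strand is not given in the sources used here, so reads of such pairs may not be told apart.

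The other mitochondrial falls rested on 1 untreated library. With DMSO as control 5 mitochondrial members rose and 0 fell, and the share of all genes called with that control is not given. Vars2 (valine) had 30.74, 29.86 and 30.43 TPM under AAS, against 58.51, 37.52 and 32.24 TPM without treatment (-0.44, adjusted p = 0.0474). Aars2 (alanine) had 13.53, 15.93 and 15.13 TPM under AAS, against 26.43, 17.53 and 16.44 TPM without treatment (-0.39, adjusted p = 0.013). In both, replicate 1 of the untreated WT libraries was far above the other two; that library was the highest of its group for 8 of 16 mitochondrial and 9 of 20 cytosolic members. Without it, 2 mitochondrial members rose and 1 fell, and 14 cytosolic members rose and 0 fell. Fars2 also lost its call without replicate 2 or 3 of AAS, and Pars2 without replicate 3 of AAS. The calls lost without the untreated library were Aars2, Vars2, Fars2 (phenylalanine), Pars2 (proline), Hars and Qars, with adjusted p from 0.0552 to 0.438. Yars2 (tyrosine) kept its rise, with 39.11, 37.61 and 36.01 TPM under AAS against 30.85, 31.15 and 32.35 TPM without treatment (0.25, adjusted p = 0.00234).

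**Figure D2:**
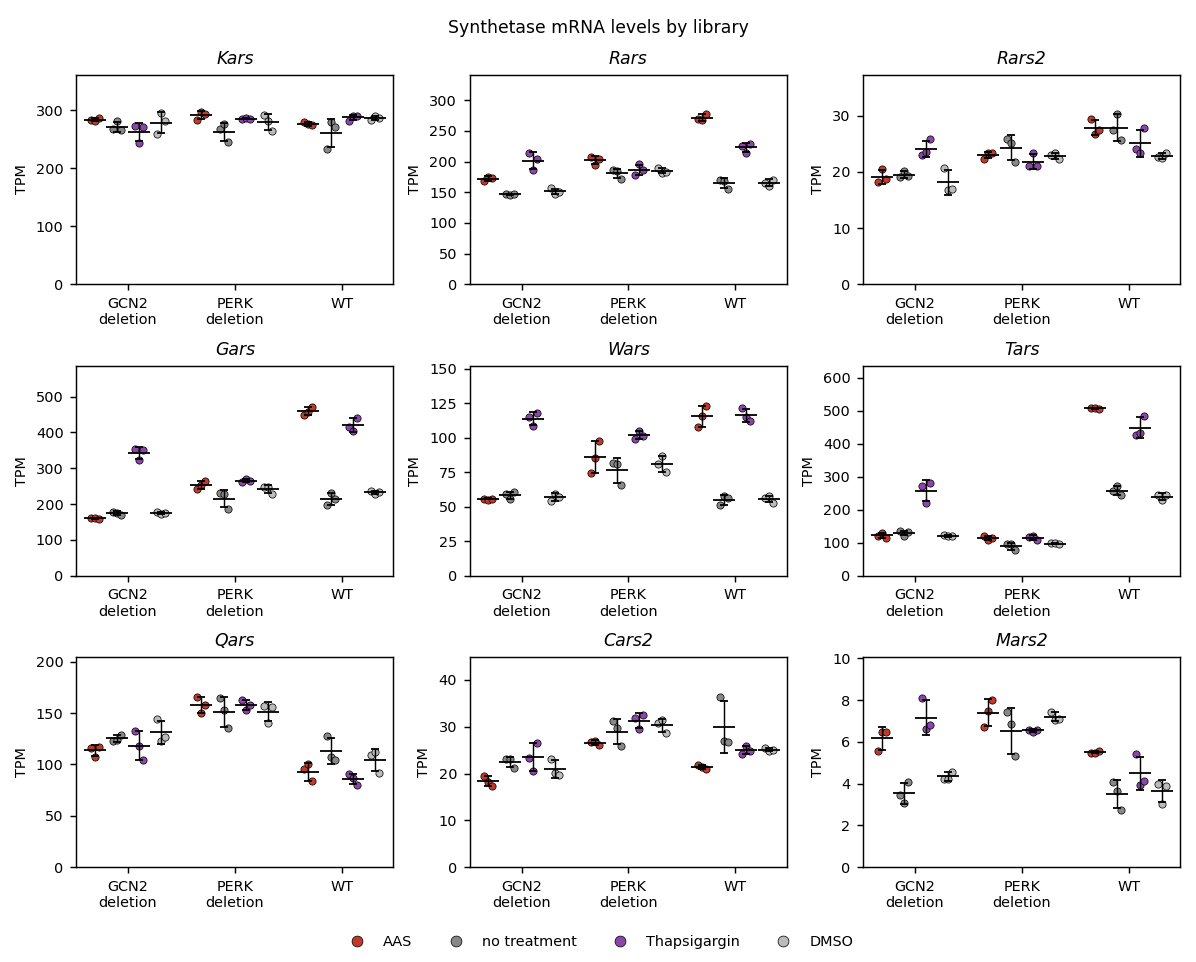
TPM of Kars, Rars, Rars2, Gars, Wars, Tars, Qars, Cars2 and Mars2 in each library (points) with the group mean and SD (bars), for AAS, no treatment, thapsigargin and DMSO in the GCN2-deleted, PERK-deleted and WT lines. Kars stays between 233.4 and 296.3 TPM in all 36 libraries, while Gars in WT lies at 449.9 to 472.3 TPM under AAS, against 198.1 to 231.3 TPM without treatment.

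Thapsigargin gave nearly the same picture in WT cells. Of the 20 cytosolic members 16 rose and 1 fell, with 11.4% of all genes rising and 14.8% falling, and of the 16 mitochondrial members 2 rose and 1 fell. The median log2 change was 0.51 for the cytosolic set and 0.12 for the mitochondrial set, against -0.04 for all genes. After median-of-ratios rescaling of the libraries, 18 cytosolic members rose and 0 fell, and 6 mitochondrial members rose and 1 fell. With untreated cells as control 2 mitochondrial members rose and 5 fell.

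Wars was again near the top, with 121.5, 114.9 and 111.8 TPM under thapsigargin against 56, 57.57 and 53.02 TPM with DMSO (1.05, adjusted p = 3.96e-11). Tars had 426.7, 434 and 484.4 TPM under thapsigargin, against 245.9, 228.9 and 245 TPM with DMSO (0.90, adjusted p = 4.7e-10). Gars had 414.2, 403.3 and 441.1 TPM under thapsigargin, against 235.4, 229.3 and 233.6 TPM with DMSO (0.85, adjusted p = 1.02e-11). No thapsigargin library of these genes overlapped a DMSO library. Cars had 163.2, 162.2 and 179.8 TPM under thapsigargin, against 97.07, 101.3 and 97.8 TPM with DMSO (0.76, adjusted p = 1.52e-08). Sars had 464.7, 463.4 and 463.5 TPM under thapsigargin, against 289.9, 298.4 and 287.9 TPM with DMSO (0.67, adjusted p = 1.24e-07), again without overlap.

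Rars rose less than under starvation, with 225.3, 214.5 and 228.9 TPM under thapsigargin against 165.6, 159.7 and 170.6 TPM with DMSO (0.43, adjusted p = 3.24e-08). Kars had 282.4, 290.9 and 290.6 TPM under thapsigargin, against 282.6, 290.1 and 287.3 TPM with DMSO, an overlap with a log2 change of 0.01 (adjusted p = 0.98). Qars had 90.37, 86.86 and 80.22 TPM under thapsigargin, against 109.4, 111.8 and 91.91 TPM with DMSO. That fall of 0.28 on the log2 scale (adjusted p = 0.0252) was lost in 4 of the 6 fits that left out a library, and after rescaling (-0.21, adjusted p = 0.0705).

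Of the mitochondrial set, Fars2 and Ears2 rose with thapsigargin in WT. Fars2 had 15.19, 16.35 and 16.21 TPM under thapsigargin, against 12.98, 11.19 and 12.34 TPM with DMSO (0.36, adjusted p = 0.00184). Ears2 (glutamate) had 9.947, 9.839 and 8.668 TPM under thapsigargin, against 6.845, 8.123 and 6.708 TPM with DMSO (0.35, adjusted p = 0.00246), and did not pass with untreated cells as control (0.15, adjusted p = 0.163). Both genes were separate between the groups, and each overlaps a gene on the opposite strand (Lyrm4 and Nrn1 for Fars2, Ubfd1 for Ears2). Iars2 (isoleucine) fell by 0.25 on the log2 scale (adjusted p = 0.012), but its 34.79, 28.19 and 30.02 TPM under thapsigargin overlapped the 37.86, 33.59 and 39.56 TPM with DMSO, and the call was lost in 4 of 6 fits that left out a library.

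AAS and thapsigargin in WT have separate controls, untreated cells and DMSO. Of the cytosolic members that rose, 14 rose under both, which is 14 of the 15 under AAS and 14 of the 16 under thapsigargin. Dars passed under AAS alone and Farsa and Mars under thapsigargin alone, and Qars was called lower under both. Neither call of Qars remained after rescaling. Of the mitochondrial members, Fars2 alone rose under both. The thapsigargin call of Mars was lost in 4 of the 6 fits that left out a library. The difference between the responses was tested directly, with 5.77% of all genes higher and 6.17% lower under AAS than under thapsigargin. Of the cytosolic members, Rars responded more to AAS (0.29, SE 0.0653, adjusted p = 0.00309) and Farsa less (-0.19, adjusted p = 0.0488); of the mitochondrial members, Cars2 was lower (-0.45, adjusted p = 0.0184). With the control groups exchanged, Cars2 was at 0.02 (adjusted p = 0.929), 6 mitochondrial members were higher and 1 lower, and 4 cytosolic members were higher and 0 lower. After rescaling 3 cytosolic members were higher and 0 lower, and 1 mitochondrial member was higher and 1 lower. Rars kept its call in all 12 fits that left out a library, while Farsa lost its call in 10 of them and Cars2 without replicate 1 of no treatment or replicate 2 of thapsigargin. Without replicate 2 of no treatment 5 cytosolic members were called.

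**Figure D3:**
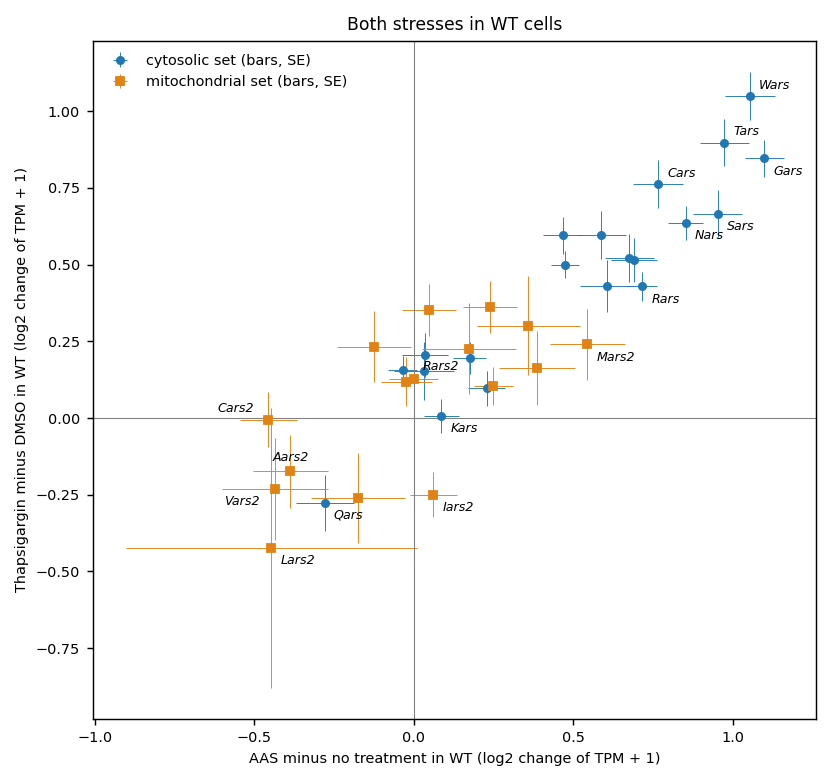
Log2 change under AAS against untreated (x axis) and under thapsigargin against DMSO (y axis) in WT for each member, with SE bars and the 2 sets in separate colours. Most cytosolic members lie up and to the right, out to Gars (1.10, 0.85) and Wars (1.05, 1.05), with Kars near the origin and Qars below it, and the mitochondrial members surround the origin.

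Within the cytosolic set, the 8 catalytic members of the multi-synthetase complex (Dars, Eprs, Iars, Kars, Lars, Mars, Qars and Rars), a large assembly of synthetases and scaffold proteins, moved less than the 12 outside it. Under AAS in WT, 5 of the 8 rose and 1 fell with a median log2 change of 0.42, and 10 of the 12 outside rose with a median of 0.68. Under thapsigargin in WT the medians were 0.32 for the complex and 0.62 for the others, with 5 rising and 1 falling of 8, and 11 rising of 12. This difference between the groups of genes is a description, with no test. Both structural classes of synthetase were represented, with 6 of 9 class I and 8 of 10 class II members rising under AAS. Eprs, the fused enzyme, rose as well and was counted in neither class.

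Promoter sequence was examined because the cytosolic members moved together. RefSeq windows of 300 bases, from 250 before to 50 after a gene's start (GRCm38.p6), were at hand for 13 cytosolic and 14 mitochondrial members. Cars, Hars, Lars, Nars, Rars, Vars, Wars, Hars2 and Pars2 had no window, so the counts do not cover the whole sets. The motif TGATGNAA, the core of the element that ATF4 binds with a C/EBP partner, was searched on both strands. It was present in 5 of the 13 cytosolic windows (38.46%), namely Aars (with 2 matches), Gars, Iars, Tars and Yars, in 0 of the 14 mitochondrial members, and in 4.51% of 27025 genes with a window. Stretches around each match, on the gene's strand with the match in capitals, show how it lies in each gene, so that a match in the opposite orientation appears as the reverse complement.
Aars, chr8:111033684-111033783: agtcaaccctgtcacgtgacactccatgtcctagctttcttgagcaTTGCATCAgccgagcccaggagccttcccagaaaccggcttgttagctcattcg
Aars, chr8:111033805-111033891: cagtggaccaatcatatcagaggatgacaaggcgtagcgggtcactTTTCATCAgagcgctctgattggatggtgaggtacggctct
Gars, chr6:55037925-55038024: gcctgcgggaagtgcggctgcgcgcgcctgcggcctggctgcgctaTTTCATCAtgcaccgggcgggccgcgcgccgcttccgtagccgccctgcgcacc
Iars, chr13:49682091-49682179: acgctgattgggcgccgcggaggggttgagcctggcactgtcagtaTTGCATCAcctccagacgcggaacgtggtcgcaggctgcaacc
Tars, chr15:11399620-11399719, minus strand: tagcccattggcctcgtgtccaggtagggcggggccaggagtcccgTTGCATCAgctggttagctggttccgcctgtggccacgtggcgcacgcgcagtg
Yars, chr4:129189860-129189952: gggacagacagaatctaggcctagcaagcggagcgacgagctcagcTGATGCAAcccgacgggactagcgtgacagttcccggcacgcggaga

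Counted from 0 at the start base, the matches began at -112 and 9 in Aars, -30 in Gars, 7 in Iars, -15 in Tars and 3 in Yars. In Aars, Gars, Iars and Tars the match was in the opposite orientation, and in Yars in the same orientation as the gene. All 5 genes rose in WT, by 0.47 to 1.10 on the log2 scale under AAS and by 0.43 to 0.90 under thapsigargin. Of the 8 cytosolic members with a window and no match, 4 rose and 1 fell under AAS, out to 0.95 for Sars, and 5 rose and 1 fell under thapsigargin, out to 0.67 for Sars. A match is a description of letters in these windows and not of binding. The endoplasmic reticulum stress element (ERSE, searched on both strands as CCAAT and CCACG set 9 bases apart) was in no member's window and in 0.14% of genes.

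In the GCN2-deleted line, starvation no longer raised the cytosolic set as a group. There 2 cytosolic members rose and 4 fell (11.7% of all genes rose and 12.2% fell), and 2 mitochondrial members rose and 1 fell (2 and 2 after rescaling). The median log2 change was -0.09 for the cytosolic set, -0.07 for the mitochondrial set and 0.00 for all genes. The summed cytosolic level was 2587 ± 13.7 TPM under AAS, against 2774 ± 23.2 TPM without treatment. In WT cells it was 4859 ± 89.6 TPM under AAS, against 3286 ± 117 TPM without treatment.

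Gars in the GCN2-deleted line had 160.2, 162.6 and 157.5 TPM under AAS, against 178.5, 176.4 and 169.2 TPM without treatment, and did not pass (-0.12, adjusted p = 0.141). Wars had 55.84, 55.19 and 55.89 TPM under AAS, against 59, 55.48 and 60.35 TPM without treatment (-0.07, adjusted p = 0.632). The starved libraries of Gars lay below the untreated ones and those of Wars overlapped them, where in WT both were far above. Aars had 81.48, 81.29 and 78.21 TPM under AAS, against 133, 125.6 and 133.5 TPM without treatment (-0.70, adjusted p = 1.56e-09). Cars had 51.18, 53.34 and 49.33 TPM under AAS, against 78.41, 84.04 and 80.75 TPM without treatment (-0.65, adjusted p = 5.12e-07). Mars (-0.41, adjusted p = 9.14e-05) and Sars (-0.25, adjusted p = 0.0169) fell with them, the call of Sars being lost without replicate 3 of AAS or replicate 1 of no treatment. Mars overlaps Ddit3 on the opposite strand, which fell too (-1.08). Ddit3 also rose under thapsigargin in WT (3.94) and in the GCN2-deleted line (3.65), where Mars was called higher. Under AAS in WT Ddit3 rose by 1.93 while Mars did not pass. In the PERK-deleted line Ddit3 rose by 2.27 under thapsigargin and fell under AAS (-0.27), and Mars passed under neither. The part of Ddit3 in the Mars values was not tested.

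Rars was, with Dars, a cytosolic member that still rose without GCN2. It had 167.7, 175.3 and 172.8 TPM under AAS, against 146.4, 146 and 146.9 TPM without treatment (0.23, adjusted p = 0.000464), and the groups were separate. In the mitochondrial set, Mars2 had 5.543, 6.477 and 6.482 TPM under AAS, against 3.435, 3.098 and 4.093 TPM without treatment (0.66, adjusted p = 0.000115). Yars2 had 38.82, 37.21 and 38.78 TPM under AAS, against 32.02, 31.42 and 27.69 TPM without treatment (0.33, adjusted p = 0.000214). Mars2 and Yars2 were thus called higher in the starved GCN2-deleted line as in starved WT cells, without overlap between the groups in either line.

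The difference of the AAS response between the GCN2-deleted line and WT was called lower for 14 of 20 cytosolic members and higher for 0, with 4.17% of all genes lower and 3.69% higher. The median difference was -0.66 for the cytosolic set, -0.01 for the mitochondrial set and 0.06 for all genes. Cars differed most (-1.42, SE 0.111, adjusted p = 2.97e-10), followed by Gars (-1.22, SE 0.0846, adjusted p = 2.26e-11), Sars (-1.21), Aars (-1.16), Wars (-1.12) and Tars (-1.06). Rars also differed (-0.49, adjusted p = 5.27e-06), although it rose in both lines. Of the mitochondrial members Fars2 alone differed (-0.39, adjusted p = 0.044), and it did not pass after rescaling or in 7 of the 12 fits that left out a library. The count of 14 was the same in every fit that left out a library.

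**Figure D4:**
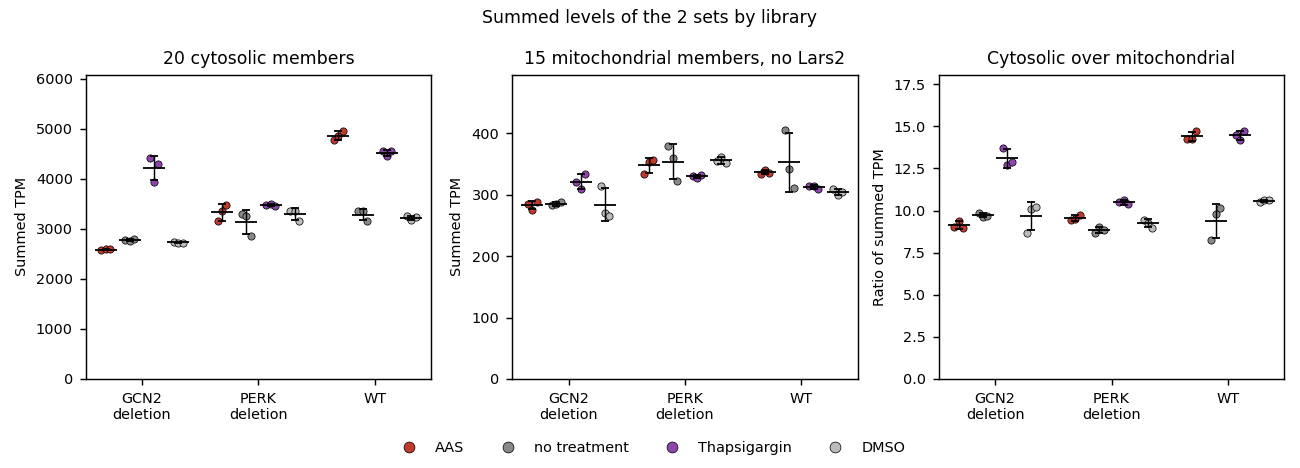
Summed TPM of the 20 cytosolic members, summed TPM of 15 mitochondrial members (without Lars2), and their ratio, in each library (points) and as group mean and SD, for AAS, no treatment, thapsigargin and DMSO in the 3 lines. The cytosolic sum is high under both stresses in WT (4859 and 4519 TPM), under thapsigargin in the GCN2-deleted line (4213 TPM) and in no group of the PERK-deleted line, where it stays at 3133 to 3470 TPM.

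The PERK-deleted line also responded little to starvation, although GCN2 was not deleted in it. There 3 cytosolic members rose and 0 fell (5.75% of all genes rose and 6.39% fell), and 1 mitochondrial member rose and 0 fell. After rescaling 6 cytosolic members rose and 0 fell, and with DMSO as control 0 rose and 1, Aars, fell. The median change was 0.10 for the cytosolic set and -0.03 for the mitochondrial set, against -0.02 for all genes. Atf4 mRNA moved likewise, with log2 changes of -0.04 in the GCN2-deleted line and 0.02 in the PERK-deleted line, against 0.95 in WT; its part in these results was not tested.

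The 3 cytosolic members were Tars, Gars and Rars. Tars had 119.5, 109.3 and 113.2 TPM under AAS, against 96.23, 94.95 and 77.91 TPM without treatment (0.35, adjusted p = 0.00259). Gars had 242.7, 253.4 and 265.9 TPM under AAS, against 231.5, 227.5 and 187.7 TPM without treatment (0.24, adjusted p = 0.00706). Rars had 207.2, 194.9 and 204.8 TPM under AAS, against 186.1, 184.1 and 171.9 TPM without treatment (0.16, adjusted p = 0.0191). The groups were separate for each, but without replicate 3 of no treatment 1 of the 3, Tars, was called, and none of these calls remained with DMSO in place of untreated cells (adjusted p 0.0687, 0.53 and 0.0832), or with only the compared groups in the fit. Yars2 rose in this line too, with 38.02, 34.33 and 34.67 TPM under AAS against 29.88, 31.4 and 28.24 TPM without treatment (0.25, adjusted p = 0.00627), a call lost without replicate 1 of AAS.

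The AAS response of the PERK-deleted line was lower than that of WT for 14 of 20 cytosolic members and higher for 0 (5.34% of all genes lower, 5.58% higher), and 0 of 16 mitochondrial members differed (2 at an unadjusted limma p under 0.05). The median difference was -0.52 for the cytosolic set, -0.04 for the mitochondrial set and 0.03 for all genes. Wars (-0.89, adjusted p = 2.08e-06), Gars (-0.86, adjusted p = 2.96e-08), Sars (-0.85) and Nars (-0.75) differed most. Both line differences share the WT libraries, so their likeness is not independent.

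Thapsigargin separated the lines. In the GCN2-deleted line 17 of 20 cytosolic members rose and 0 fell, with 25.4% of all genes rising and 11.3% falling, and 8 of 16 mitochondrial members rose and 1 fell. The median change was 0.78 for the cytosolic set, 0.23 for the mitochondrial set and 0.08 for all genes. Rescaling moved the median of all genes here by -0.10; relative to it 14 cytosolic members rose and 2, Kars and Qars, fell, and 5 mitochondrial members rose and 2 fell.

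Aars had 279.7, 258.7 and 272.2 TPM under thapsigargin in the GCN2-deleted line, against 123.9, 126.3 and 127 TPM with DMSO (1.10, adjusted p = 5.13e-14). Cars had 171.9, 141.7 and 166.9 TPM under thapsigargin, against 80.79, 71.31 and 72.78 TPM with DMSO (1.08, adjusted p = 1.41e-11). Both fell under starvation in this line. Tars had 272.8, 221.3 and 280.5 TPM under thapsigargin, against 124.9, 119.1 and 119.4 TPM with DMSO (1.08, adjusted p = 9.89e-12). The thapsigargin libraries of all 3 genes lay far above the DMSO ones, with folds of 2.13 to 2.15. Mars and Sars, which fell under starvation, rose under thapsigargin as well (0.32 and 0.93).

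The mitochondrial member with the largest change against DMSO in this line was Nars2 (asparagine). It had 9.418, 8.89 and 13.77 TPM under thapsigargin, against 5.364, 5.297 and 6.439 TPM with DMSO (0.78, adjusted p = 0.000341). With untreated cells as control its change was 0.38 and did not pass (adjusted p = 0.0605). Mars2 had 8.109, 6.595 and 6.798 TPM under thapsigargin, against 4.232, 4.237 and 4.58 TPM with DMSO (0.61, adjusted p = 0.000164). Ears2 (0.60, adjusted p = 2.19e-06) and Fars2 (0.49, adjusted p = 3.88e-05) rose here as in WT, and Rars2 rose by 0.39 (adjusted p = 0.000192), with 22.97, 23.44 and 25.75 TPM under thapsigargin against 20.65, 16.75 and 16.98 TPM with DMSO. Each of the values named was separate between the groups. Pars2, Tars2 and Yars2 rose by 0.17 to 0.37 and did not pass after rescaling, and Aars2 fell (-0.41, adjusted p = 0.00675).

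The thapsigargin response of the GCN2-deleted line was higher than that of WT for 5 cytosolic members and lower for 0, against 12.3% and 1.95% of all genes; with untreated cells as control 8 were higher and 0 lower. These were Iars (0.50), Aars (0.50), Yars (0.32), Dars (0.24) and Nars (0.24), and 0 of 16 mitochondrial members differed (5 at an unadjusted limma p under 0.05), while 5 were higher with untreated cells as control. Aars and Iars kept their calls in all 12 fits that left out a library, while Dars lost its call in 8, Nars in 9 and Yars in 11 of them, with 2 to 7 cytosolic members called. Rescaling shifted the median of all genes by -0.17, and relative to it Aars and Iars were higher and Farsb and Rars lower, so the direction for the set depended on the scaling.

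In the PERK-deleted line thapsigargin raised 1 cytosolic member and lowered 0 (2.5% of all genes rose and 2.8% fell), and 0 mitochondrial members rose and 1 fell. After rescaling 5 cytosolic members rose and 0 fell, and with untreated cells as control 6 rose and 0 fell. The median change was 0.10 for the cytosolic set and -0.06 for the mitochondrial set, against -0.04 for all genes. Wars was the member that rose, with 99.33, 104.9 and 101.5 TPM under thapsigargin against 80.77, 86.56 and 75.35 TPM with DMSO (0.33, adjusted p = 0.009). These libraries were separate, but the call was lost without replicate 3 of DMSO or replicate 2 of thapsigargin (adjusted p up to 0.0706). Gars had 261.9, 270.6 and 265.3 TPM under thapsigargin, against 246.5, 249.2 and 228.5 TPM with DMSO, and did not pass (0.14, adjusted p = 0.228), though it did with untreated cells as control (0.31, adjusted p = 0.000836). Yars2 fell by 0.22 on the log2 scale (adjusted p = 0.0337), and that call was lost in 5 of the 6 fits that left out a library. Atf4 still rose in this line (0.57, against 1.33 in WT).

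The thapsigargin response of the PERK-deleted line was lower than that of WT for 13 of 20 cytosolic members and higher for 0 (7.38% of all genes lower, 5.59% higher), and lower for 3 of 16 mitochondrial members, Fars2, Ears2 and Yars2. Wars (-0.72, SE 0.112, adjusted p = 4.14e-05), Gars (-0.71, SE 0.0846, adjusted p = 7.64e-07) and Tars (-0.66, SE 0.109, adjusted p = 9.45e-05) differed most. The call of Yars2 held in all 12 fits that left out a library, while Ears2 lost its call in 7, Fars2 in 4 and the cytosolic Mars in 9 of them. After rescaling 1 mitochondrial member was higher and 3 were lower. The median difference was -0.40 for the cytosolic set, -0.19 for the mitochondrial set and 0.01 for all genes.

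**Figure D5:**
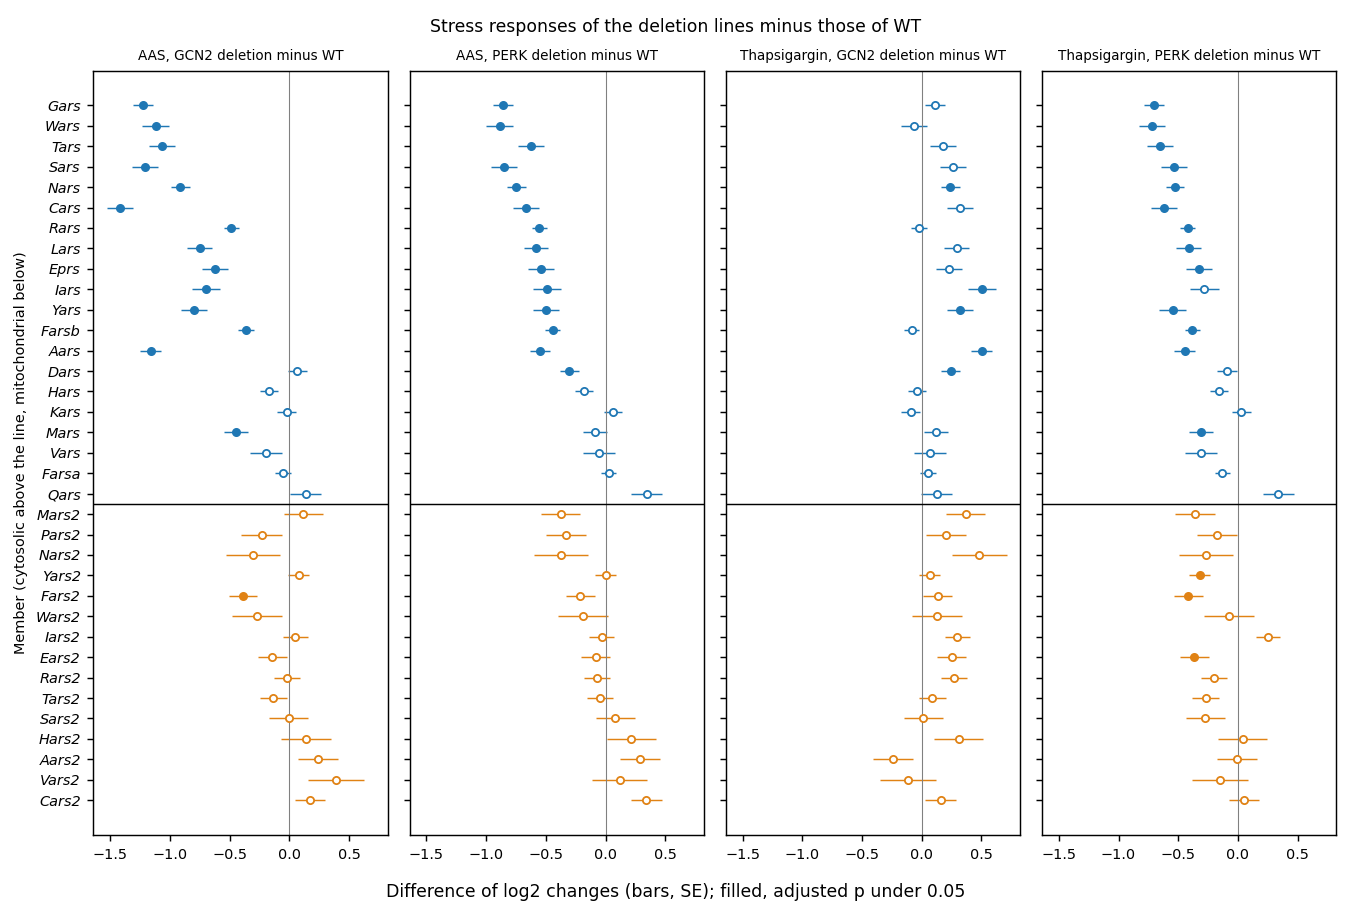
Difference of the log2 response between each deletion line and WT, with SE, for each member except Lars2, in 4 panels (AAS and thapsigargin, each for the GCN2-deleted and the PERK-deleted line); filled points have limma adjusted p under 0.05. Cytosolic members lie mostly below 0 in 3 panels (14, 14 and 13 called lower), and on both sides of 0 in the panel for thapsigargin in the GCN2-deleted line, where 5 are called higher.

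The sums of the 2 sets can be set beside each other. The cytosolic sum includes Gars and Kars, which serve both compartments, so the ratio compares the sets and not the compartments. Gars alone had a mean of 459.7 TPM under AAS in WT, against 214.5 TPM without treatment. In WT the summed cytosolic level was 14.42 ± 0.269 times the summed mitochondrial level (without Lars2) under AAS, against 9.4 ± 1.01 times without treatment, and 14.46 ± 0.28 times under thapsigargin, against 10.59 ± 0.0624 times with DMSO. In the GCN2-deleted line the ratio was 9.127 under AAS, against 9.723 without treatment, and 13.1 ± 0.543 under thapsigargin, against 9.665 ± 0.844 with DMSO. In the PERK-deleted line it was 9.56 under AAS, against 8.851 without treatment, and 10.5 under thapsigargin, against 9.237 with DMSO. The mitochondrial sum itself was 337 ± 3.37 TPM under AAS in WT, against 352.9 ± 48.5 TPM without treatment, and 312.5 ± 3.21 TPM under thapsigargin, against 304.3 ± 5.1 TPM with DMSO.

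Of 17 pairs of partners that charge tRNA with the same amino acid, the ratio of cytosolic to mitochondrial TPM in WT was higher without overlap under AAS in 11 and lower in 2, and under thapsigargin higher in 12 and lower in 1. Lars with Lars2, which the sums leave out, is counted as higher under both stresses. Eprs and Fars2 each enter 2 pairs, so the pairs are not independent. No share over other pairs of genes was computed, so these counts are a description. The ratio of Cars to Cars2 was 8.74 ± 0.0568 under AAS, against 3.7 ± 0.277 without treatment, and that of Tars to Tars2 was 7.7 ± 0.256 under AAS, against 3.87 ± 0.501. The ratio of Rars to Rars2 was 9.78 ± 0.525 under AAS, against 5.94 ± 0.329. For methionine the ratio was lower, with Mars at 32.3 ± 0.437 times Mars2 under AAS, against 51.2 ± 11.4 times without treatment, but under thapsigargin its range of 31.1 to 45.8 overlapped the 37.8 to 51.8 with DMSO. The ratio of Farsa to Fars2 was lower without overlap under both stresses, at 7.3 to 8.25 under AAS, against 8.63 to 11.6 without treatment, and at 6.8 to 7.29 under thapsigargin, against 7.63 to 9.35 with DMSO.

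Across all 12 groups, the highest mean of a cytosolic member was most often in WT under AAS (11 of 20 members), then in the GCN2-deleted line under thapsigargin (5 of 20), and the lowest mean was most often in the GCN2-deleted line under AAS (9 of 20). Of the mitochondrial members 6 of 16 were highest in the GCN2-deleted line under thapsigargin and 3 of 16 in untreated WT cells. This order is a description with no test.

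The lines differed before any stress. In untreated GCN2-deleted cells 2 cytosolic members were higher and 12 lower than in untreated WT cells, where 21.2% of all genes were higher and 23.2% lower, and 0 mitochondrial members were higher and 6 lower (cytosolic 4 and 11 after rescaling). In untreated PERK-deleted cells 8 cytosolic members were higher and 5 lower, where 31.2% of all genes were higher and 18.6% lower (6 and 7 after rescaling), and 3 mitochondrial members were higher and 4 lower. Tars was the member furthest from WT among the cytosolic ones. It had 135.5, 122.1 and 132.4 TPM in GCN2-deleted cells and 96.23, 94.95 and 77.91 TPM in PERK-deleted cells, against 255.8, 272.3 and 245.7 TPM in WT cells (log2 differences -0.98 and -1.52, adjusted p = 1.78e-11 and 1.39e-15). All deletion-line libraries of Tars lay below all WT libraries.

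Cars, Vars, Mars and Yars were lower and Hars was higher in both deletion lines. Under DMSO the PERK-deleted line did not pass for Mars (-0.02, adjusted p = 0.859), Vars (-0.21, adjusted p = 0.0579) or Yars (-0.10, adjusted p = 0.277). Farsb was lower in the GCN2-deleted line (-0.23, adjusted p = 0.000139) and higher in the PERK-deleted line (0.36, adjusted p = 9.89e-08). Hars and Hars2 start 197 bases apart on opposite strands and overlap. In the mitochondrial set Vars2 was lower in GCN2-deleted cells, with 17.25, 20.63 and 16.7 TPM against 58.51, 37.52 and 32.24 TPM in WT cells (-1.15, adjusted p = 1.61e-06). Under DMSO the difference of Vars2 was -0.33 and did not pass (adjusted p = 0.116), and the highest untreated WT value is that of replicate 1. Mars2 was higher in PERK-deleted cells, with 7.414, 6.839 and 5.319 TPM against 4.08, 3.643 and 2.758 TPM in WT cells (0.75, adjusted p = 5.52e-06). Both were separate from WT among untreated libraries.

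Genes that work with the synthetases were counted from lists, beside 12.5% of all genes that rose and 17.4% that fell under AAS in WT, and 11.4% that rose and 14.8% that fell under thapsigargin in WT. Xpot, the exporter of tRNA from the nucleus, rose in WT under AAS (0.97, adjusted p = 6.20e-09) and under thapsigargin (0.61, adjusted p = 1.43e-05), and did not pass under AAS in the GCN2-deleted line (-0.15, adjusted p = 0.303). Yrdc, which modifies tRNA, rose under AAS in the GCN2-deleted line (0.79, adjusted p = 1.38e-08) and in WT (0.65, adjusted p = 1.76e-07). With Ptrh2, these were the 3 of 7 editing and export genes that rose under each stress in WT, and 0 fell. Eef1e1, a scaffold protein of the multi-synthetase complex, was the 1 of 3 scaffold genes that rose under AAS in WT (0.50), and Aimp1 (0.20) and Aimp2 (0.28) rose under thapsigargin.

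On the mitochondrial side, of 12 other genes of tRNA charging 2 rose and 2 fell under AAS in WT, and 3 rose and 1 fell under thapsigargin. Trnt1, which adds the CCA end to tRNA, rose under both (0.68 and 0.45). Of 79 mitochondrial ribosomal protein genes 9 rose and 6 fell under AAS (median log2 change 0.02), a share of rises near that of all genes, and 21 rose and 6 fell under thapsigargin (median 0.08). Mrps31 rose most under AAS (0.52) and Mrps18b most under thapsigargin (0.47), and Mrpl18 fell under both (-0.54 and -0.69). Of 9 mitochondrial translation factors 0 rose and 1, Tufm, fell under AAS (-0.17), and Mrrf (0.46) and Tsfm (0.21) rose under thapsigargin. Of 6 cytosolic elongation factors, Eef1b2 (0.27) and Eif5a (0.22) rose under AAS and 0 of 6 were called under thapsigargin.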

How the data were processed

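Per the submitters' processing notes, reads were checked with FastQC and quantified with kallisto, with mm10 as the genome; versions and strand settings are not given in the sources used here. Per the labels' protocols, libraries were stranded TruSeq libraries of total RNA. The authors deposited TPM per gene symbol for 36 libraries. TPM keeps no depth, so the depth is unknown and no counting interval or floor is given.

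TPM values were tested as log2(TPM + 1), so a fold change of a low gene is understated. A gene was kept where 3 or more libraries reached 1 TPM. All 12 groups entered 1 linear model in limma 3.58.1 (R 4.3.3; trended, moderated variances, 24 residual degrees of freedom), and p-values were adjusted by the Benjamini-Hochberg method over the 16083 genes in each of 13 comparisons. The code was tested on simulated data. "Rose", "fell" and "called" mean an adjusted p under 0.05; folds in the text are ratios of mean TPM. Gene positions are from the GENCODE M21 annotation of GRCm38, and promoter windows from RefSeq. Python 3.11.15 and matplotlib 3.10.9 made the figures.

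The members and the other lists were chosen with earlier results of these data known. Values in every library are given for the lysine and arginine enzymes, for the 5 cytosolic and 3 mitochondrial members with the largest called changes in WT under each stress, and for members called against most of their set; those of other members were added for the deletion lines after their values were seen. The alternatives were a pseudocount of 0.1, no filter, a filter at 5 TPM, rescaling by median-of-ratios, the other unstressed group as control, the compared groups alone, a replicate block, and leaving out each library. Same-numbered libraries did not deviate together (correlations -0.179 to 0.155 over the pairs of groups compared), so the numbers were not taken to pair samples. The values of 1 gene of the other lists are not reported here.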

Additional observations from a re-analysis of the deposited data

Results flagged for a closer look

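The responses below differed between a deletion line and WT by the limma test of the difference itself (adjusted p under 0.05 over all genes); each value is the log2 response of the deletion line minus that of WT. The differences under the same stress share the WT libraries.

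Under AAS in the GCN2-deleted line the differences were -1.162 for Aars, -1.417 for Cars, -0.62 for Eprs, -0.363 for Farsb, -1.223 for Gars, -0.697 for Iars, -0.752 for Lars, -0.445 for Mars, -0.912 for Nars, -0.486 for Rars, -1.205 for Sars, -1.063 for Tars, -1.119 for Wars and -0.797 for Yars. The mitochondrial Fars2 differed by -0.389.

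Under AAS in the PERK-deleted line they were -0.55 for Aars, -0.665 for Cars, -0.304 for Dars, -0.538 for Eprs, -0.444 for Farsb, -0.858 for Gars, -0.49 for Iars, -0.582 for Lars, -0.747 for Nars, -0.554 for Rars, -0.847 for Sars, -0.625 for Tars, -0.888 for Wars and -0.497 for Yars.

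Under thapsigargin in the GCN2-deleted line they were 0.502 for Aars, 0.241 for Dars, 0.503 for Iars, 0.24 for Nars and 0.323 for Yars.

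Under thapsigargin in the PERK-deleted line they were -0.447 for Aars, -0.619 for Cars, -0.325 for Eprs, -0.381 for Farsb, -0.706 for Gars, -0.414 for Lars, -0.306 for Mars, -0.526 for Nars, -0.422 for Rars, -0.536 for Sars, -0.655 for Tars, -0.719 for Wars and -0.548 for Yars. In the mitochondrial set Ears2 differed by -0.366, Fars2 by -0.415 and Yars2 by -0.321.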

How the results depend on the processing

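Most calls kept their direction and their side of the threshold. Counts below are members called out of 20 cytosolic or 16 mitochondrial. Shares of all genes called are given above for the main model alone. They are not given for the alternatives, so alternative counts cannot be set against such a share. With the other unstressed group as control, counts were 1 cytosolic for AAS in the PERK-deleted line, 0 mitochondrial for the AAS difference between the GCN2-deleted line and WT, 7 mitochondrial for thapsigargin in WT, 6 cytosolic for thapsigargin in the PERK-deleted line, 8 cytosolic and 5 mitochondrial for the thapsigargin difference between the GCN2-deleted line and WT, and 4 cytosolic and 7 mitochondrial for AAS against thapsigargin in WT. That control reversed these values: for AAS in WT, Rars2 0.275 and Vars2 0.122; for the thapsigargin difference of the GCN2-deleted line, Vars2 0.708; for AAS against thapsigargin in WT, Vars 0.381, Aars2 0.458, Cars2 0.024, Rars2 0.422, Tars2 0.314 and Vars2 0.912; for PERK-deleted against WT cells, Cars2 0.262, Rars2 0.006 and Tars2 0.243. The cause was not tested.

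With rescaling, counts were 6 cytosolic for AAS in the PERK-deleted line, 0 and 1 mitochondrial for the AAS differences of the GCN2-deleted and PERK-deleted lines, 7 mitochondrial for thapsigargin in WT, 5 cytosolic and 0 mitochondrial for thapsigargin in the PERK-deleted line, 1 mitochondrial for the thapsigargin difference of the GCN2-deleted line, and 2 mitochondrial for AAS against thapsigargin in WT. A pseudocount of 0.1 and a filter at 5 TPM each gave 2 mitochondrial for AAS against thapsigargin, and the filter 1 mitochondrial for the thapsigargin difference of the GCN2-deleted line. Without a filter there were 0 mitochondrial for the AAS difference of the GCN2-deleted line and for thapsigargin in the PERK-deleted line, 2 cytosolic for the thapsigargin difference of the GCN2-deleted line and 1 cytosolic for AAS against thapsigargin. With the compared groups alone, which leaves fewer residual degrees of freedom, counts were 1 mitochondrial for AAS and for thapsigargin in WT, 0 of both sets for AAS in the PERK-deleted line, 0 mitochondrial for the AAS difference of the GCN2-deleted line and for AAS against thapsigargin, 2 of each set for thapsigargin in the PERK-deleted line, 3 cytosolic for the thapsigargin difference of the GCN2-deleted line, 3 mitochondrial for untreated GCN2-deleted cells, and 7 cytosolic and 4 mitochondrial for untreated PERK-deleted cells. With a replicate block 0 mitochondrial were called for the AAS difference of the GCN2-deleted line and 1 cytosolic for AAS against thapsigargin; no other count moved by over 1.5 times.

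Leaving out a library gave 1 to 3 cytosolic and 0 to 1 mitochondrial for AAS in the PERK-deleted line, 3 to 7 mitochondrial for AAS in WT, 1 to 5 cytosolic and 0 to 3 mitochondrial for AAS against thapsigargin, 0 to 1 mitochondrial for the AAS difference of either line, 0 to 1 of each set for thapsigargin in the PERK-deleted line, 2 to 7 cytosolic and 0 to 2 mitochondrial for the thapsigargin difference of the GCN2-deleted line, and 1 to 3 mitochondrial for that of the PERK-deleted line. The cytosolic counts of 14 or more ran from 14 to 16 for AAS and from 14 to 17 for thapsigargin in WT. Thapsigargin in the GCN2-deleted line gave 16 to 17, and untreated GCN2-deleted against WT cells 12 to 15. The AAS differences gave 14 in every fit for the GCN2-deleted line and 14 to 15 for the PERK-deleted line. The mitochondrial set had larger errors (median SE 0.117, against 0.0717 for the cytosolic set), so smaller changes could be detected in the cytosolic set.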
